A study of Schizosaccharomyces pombe with 4 samples.

Results

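The genes described here encode the proteins of the large (60S) subunit of the cytosolic ribosome of the fission yeast Schizosaccharomyces pombe. They were taken from a fixed list of 60 gene identifiers, the rpl and rpp genes with their paralogues, and all 60 were found among the 5143 genes measured at 24°C. The study exchanged the fatty acid synthase of S. pombe for that of its relative S. japonicus and sequenced poly(A) RNA to see how mRNA abundance differed. Each of the 4 groups was 1 library: S. pombe fas S.j., in which the fas1 and fas2 open reading frames were replaced by the S. japonicus ones, at 24°C and at 30°C, and wild type at the same temperatures. All cultures grew exponentially in the rich medium YES. Because no group had a second library, no difference below has a replicate check, and none was tested.

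The replaced genes gave the reading that the strain labels imply. At 24°C fas1 was at 7.35 FPKM in fas S.j., against 301 FPKM in wild type, and fas2 was at 0.32 FPKM in fas S.j., against 336 FPKM in wild type. FPKM (the mapped fragments of a gene per unit of transcript length and of library size) corrects a gene's reads for transcript length and for sequencing depth. It is a share of the library, so a lower value of some genes cannot be told apart from a larger total of the others. The depth itself was not given. The lowest values of intronless genes lay on regular steps, each the worth of 1 read. For a transcript with 1 kilobase left after 200 bases were taken off, a step was 0.095 FPKM in fas S.j. and 0.0755 FPKM in wild type. Taking off 200 bases was chosen because the steps were most regular with it, among 0, 50, 100 and 200 bases, and with 50 the order of the strains turned, so the read numbers are rough. On the 200-base scale the least covered 60S gene, rpl1201, had about 860 reads in fas S.j., against 1180 in wild type. Counting alone then gave a standard error of at most 0.065 on the log2 scale for any of the 60 genes, which leaves out the variation between cultures.

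The list did not hold the 60S proteins alone, nor all of them. The gene SPAC664.06 on it is annotated as rlp7, a factor that acts in the assembly of the large subunit and leaves before the ribosome is finished. The annotation calls rpl701 (SPBC18H10.12c) an L7-like protein and a subunit of RNase MRP, an RNA-processing enzyme. Another 25 genes measured at 24°C are annotated as 60S proteins and were not on the list, among them rpl101, rpp102, rpp103, rpp201 and rpp203, the sister genes of listed members. They are used below as partners of their paralogues and as a separate gene list.

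The large subunit joins amino acids at its peptidyl transferase centre and leads the growing chain out through the exit tunnel. Mobile stalks on its sides handle the other ligands: the P stalk recruits the GTPases of translation, and the L1 stalk moves with the tRNA that leaves. Most of its proteins in fission yeast come from 2 or more nearly alike genes, and growing cells spend much of their transcription on them. Many fission yeast ribosomal protein genes have no TATA box, and an element called HomolD, often with a second element called HomolE upstream of it, serves as their core promoter.

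These elements were visible in the promoters. Windows of 300 bases, 250 before to 50 after each annotated transcript start, were read from the RefSeq assembly ASM294v3 and searched on both strands for exact matches. The HomolD letters CAGTCACA were in 39 of the 60 windows (65.0%), and in 137 of 5073 windows of all genes (2.7%). The HomolE core CCCTACCC was in 22 of 60 (36.7%), against 1.6% of all windows. The letters TATAAA were in 13 of 60 (21.7%), against 48.1% of all windows. None of the 3 motifs contains another. Of the 41 HomolD matches, 38 began between 75 and 43 bases before the start. In all 14 genes with both elements the HomolE core lay upstream, its first base 9 to 26 bases from that of HomolD. Genes of the small subunit had the same elements, with HomolD in 36 of 58 windows (62.1%), whereas none of 77 genes for mitochondrial ribosomal proteins had it.

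Shown here are the promoters of the 4 genes that stood farthest from the others, with 1 paralogue of each except rlp7. Also shown is rpl8, 1 of the 14 genes with both HomolD and the HomolE core. Each run is 120 bases before to 10 after the start, 5′ to 3′ on the gene's own strand, and the capitals mark HomolD, the HomolE core or TATAAA in either orientation (TGTGACTG and GGGTAGGG are the reverse complements).
rpl8, chrII:2045355-2045484, plus strand: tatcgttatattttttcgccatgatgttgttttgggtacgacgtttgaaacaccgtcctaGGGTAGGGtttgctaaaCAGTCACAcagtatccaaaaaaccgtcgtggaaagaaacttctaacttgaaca
rpp202, chrII:2128458-2128587, minus strand: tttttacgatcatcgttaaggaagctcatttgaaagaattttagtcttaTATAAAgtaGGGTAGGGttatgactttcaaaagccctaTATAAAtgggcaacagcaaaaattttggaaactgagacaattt
rpp201, chrII:3643041-3643170, plus strand: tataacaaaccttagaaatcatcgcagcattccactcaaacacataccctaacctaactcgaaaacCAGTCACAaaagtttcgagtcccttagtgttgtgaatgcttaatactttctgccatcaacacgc
rpl102, chrII:3060429-3060558, plus strand: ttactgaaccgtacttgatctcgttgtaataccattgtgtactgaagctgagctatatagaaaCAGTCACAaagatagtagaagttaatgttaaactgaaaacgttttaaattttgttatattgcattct
rpl101, chrIII:612570-612699, minus strand: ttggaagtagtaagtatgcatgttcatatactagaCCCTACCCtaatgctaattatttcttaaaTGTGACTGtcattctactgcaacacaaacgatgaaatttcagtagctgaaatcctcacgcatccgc
rpl3002, chrI:5095870-5095999, minus strand: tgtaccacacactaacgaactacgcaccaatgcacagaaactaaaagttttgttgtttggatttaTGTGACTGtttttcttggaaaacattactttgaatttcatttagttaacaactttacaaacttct
rpl3001, chrI:1974074-1974203, minus strand: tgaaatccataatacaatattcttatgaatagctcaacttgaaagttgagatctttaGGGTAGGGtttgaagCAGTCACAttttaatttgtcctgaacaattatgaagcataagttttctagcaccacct
rlp7, chrI:1712665-1712794, plus strand: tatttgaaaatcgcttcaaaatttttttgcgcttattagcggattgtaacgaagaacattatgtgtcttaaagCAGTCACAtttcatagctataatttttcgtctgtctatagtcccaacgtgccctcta
The promoter of rpp202 had the HomolE core and 2 TATAAA matches but no HomolD match. In the run shown, rpp201, 1 of its 2 paralogues, had HomolD and neither of the others. Rlp7, though an assembly factor, had HomolD in the usual place. It was the 1 gene among 41 assembly factors with a match (2.44%, beside 2.7% of all genes). The plot of motif positions orders the genes by their change in expression. Genes with an exact HomolD match had a median change of -0.09 on the log2 scale, against -0.12 in the 21 without it. With the HomolE core the median was -0.12 (22 genes), against -0.10 in the 38 without it. With TATAAA it was -0.10 (13 genes), against -0.11 in the 47 without it.

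**Figure D1:**
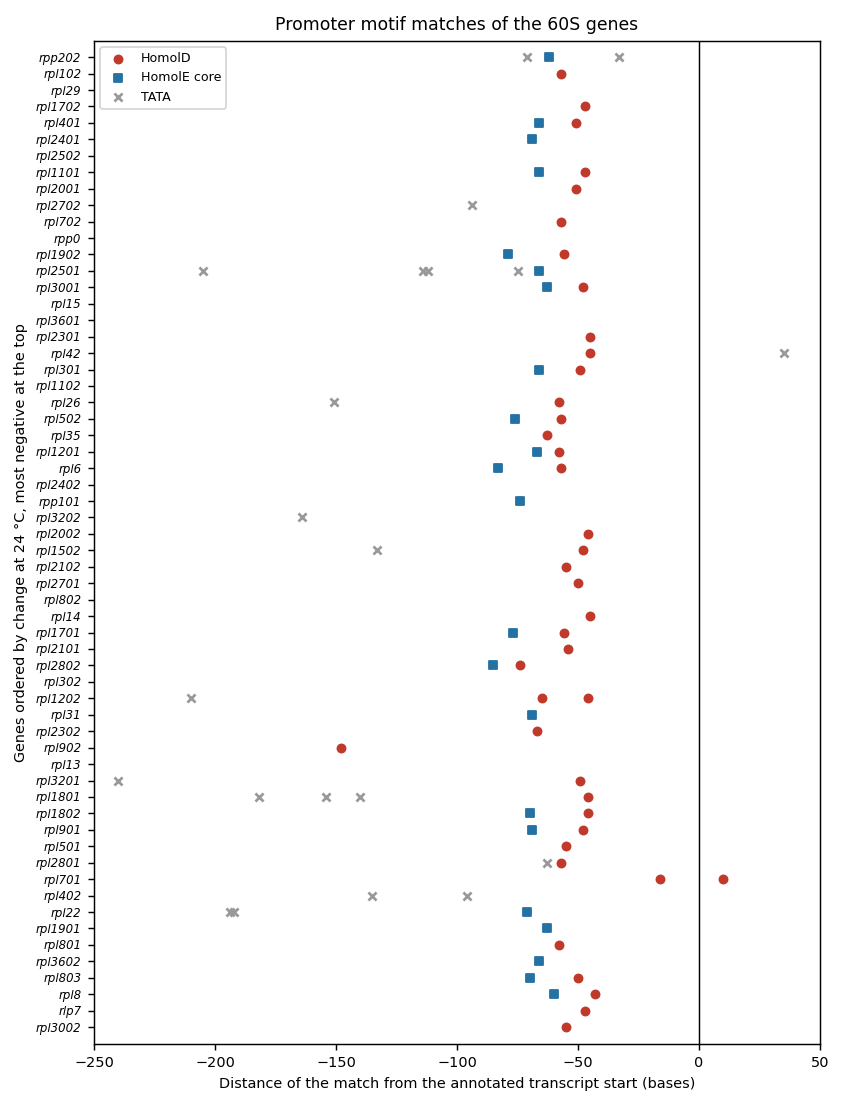
Position of HomolD (red circles), HomolE core (blue squares) and TATAAA (grey crosses) matches in the promoter windows of the 60 genes, in bases from the annotated transcript start (0), with genes ordered by their change at 24°C and the most negative at the top. HomolD gathers between 75 and 43 bases before the start along the whole order. In the 14 genes with both elements, the HomolE core lies just upstream of HomolD.

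The 60S genes were among the most abundant mRNAs of both strains. Of the 100 genes with the highest FPKM at 24°C, 25 were members in fas S.j., against 29 in wild type. Their FPKM values had a lowest, median and highest of 228, 1741 and 6967 in fas S.j. at 24°C, against 236, 1930 and 8347 in wild type. Over the 4943 genes whose mean FPKM over both libraries reached 1, the median was 41.9 in fas S.j., against 41.8 in wild type. The 60 genes, 1.17% of those in the table, took 12.8% of the summed FPKM in fas S.j., against 13.7% in wild type. Their levels kept nearly the same order in the 2 strains (Spearman's rho 0.99 and, on the log2 scale, Pearson's r 0.99 across 60 genes that share both libraries).

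**Figure D2:**
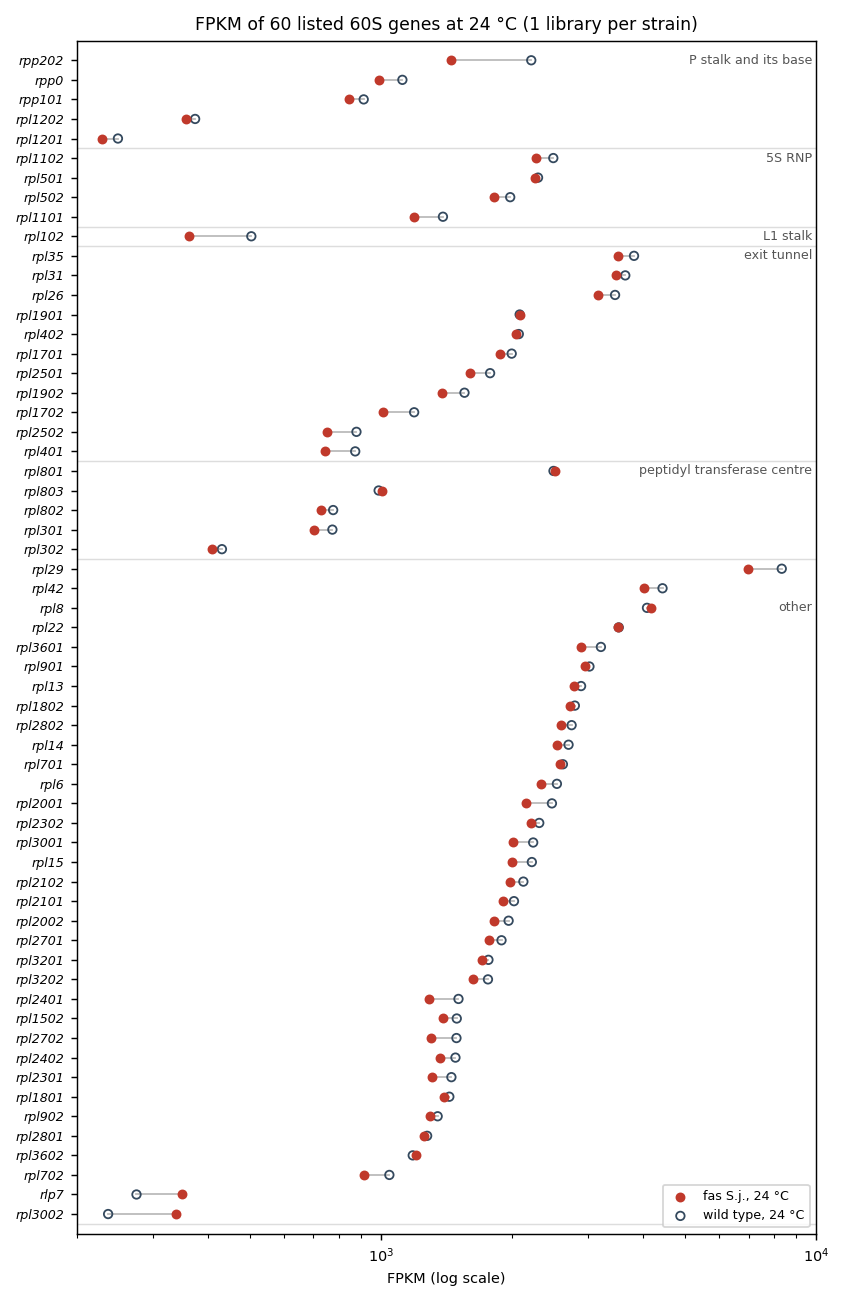
FPKM (log scale) of each of the 60 genes at 24°C in fas S.j. (filled red) and wild type (open circles), 1 library per strain, grouped by place in the subunit and ordered by the wild-type level. In 54 of 60 genes the red point lies left of the open one, mostly by a small step and farthest in rpp202 and rpl102. Of the 6 genes where it lies to the right, rlp7 and rpl3002 at the bottom have the largest step.

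The genes as a group were slightly lower in fas S.j. at 24°C. Changes are given as log2 of FPKM + 1 in fas S.j. over FPKM + 1 in wild type. The median change was -0.11, and the middle 50% of the genes lay between -0.15 and -0.05. Of the 60 genes, 54 (90%) were lower in fas S.j., where 50.7% of all 4943 genes were lower and their median change was -0.004. The summed FPKM of the members was 111427 in fas S.j., against 120283 in wild type, a ratio of 0.93.

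The changes were small and close to one another. None of the 60 genes passed a change of 0.8 in either direction, which 6.27% of all genes passed. This is the study's limit for the fold change, and the p-value limit it used beside it was not applied here. At a limit of 0.3, 2 genes (3.33%) were lower, rpp202 and rpl102, beside 10.8% of all genes. Another 2 (3.33%) were higher, rpl3002 and rlp7, beside 16.5% of all genes. The other 56 genes lay between -0.26 and 0.03. The distance between the quartiles was 0.11 for the 60 genes, against 0.45 for the 359 genes outside the cytosolic ribosome whose mean FPKM was at least that of the lowest member. The closeness was shared by the other cytosolic ribosomal genes. The distance was 0.097 for 58 genes of the small subunit and 0.075 for the 25 annotated 60S genes outside the list. For the mitochondrial ribosome it was 0.18. Of those 359 genes, 51.0% were lower in fas S.j. and their median was -0.004. Across the members the change had a Spearman's rho of 0.09 with the wild-type level and of 0.16 with the coding length. Pearson's r with the log2 wild-type level was -0.245 over all 60 genes, and 0.09 in the 56 genes within 0.3.

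**Figure D3:**
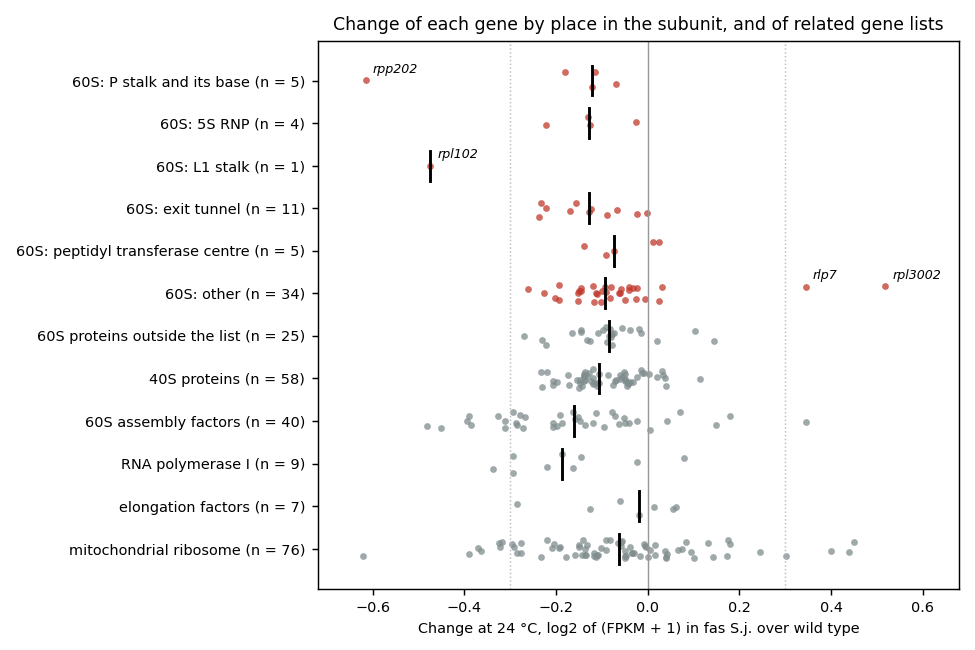
Change at 24°C (log2 of FPKM + 1 in fas S.j. over wild type, x axis) of each 60S gene by place in the subunit (red) and of each gene of 6 related lists (grey), 1 point per gene, with the median as a black bar and dotted lines at -0.3 and 0.3. The 4 named genes lie beyond the dotted lines, and the other 56 lie between -0.26 and 0.03.

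All 5 listed genes of the P stalk and its base were lower in fas S.j., beside 90% of the 60 members and 50.7% of all genes. Their median was -0.12. The lowest change of any member on the log2 scale was that of rpp202 (SPBC23G7.15c), 1 of the genes for the acidic protein P2, at 1446 FPKM in fas S.j. and 2217 FPKM in wild type, a change of -0.62. P1 and P2 sit as dimers on P0, the protein that anchors the stalk to the ribosome. The gene of P0, rpp0 (SPCC18.14c), was at 989 FPKM in fas S.j. and 1121 FPKM in wild type, and its change was -0.18. The P1 gene rpp101 was at 844 FPKM in fas S.j. and 913 FPKM in wild type, a change of -0.11. Not on the list were the P1 genes rpp102 (0.14) and rpp103 (-0.08) and the P2 genes rpp201 (-0.07) and rpp203 (-0.27). The pair rpl1201 and rpl1202, for the uL11 protein at the base of the stalk, was expressed least of the group. Rpl1201 was at 228 FPKM in fas S.j. and 249 FPKM in wild type, and rpl1202 was at 357 FPKM in fas S.j. and 374 FPKM in wild type, with changes of -0.12 and -0.07. The coding sequences of that pair are 99.6% identical, so that short reads may not tell them apart.

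The L1 stalk had 1 listed gene, rpl102 (SPBC30D10.18c), for the uL1 protein. It was at 362 FPKM in fas S.j. and 504 FPKM in wild type, and its change of -0.47 was the second lowest of all. Its reads were estimated within a locus that also holds rbd1. That neighbour was at 22.8 FPKM in fas S.j. and 21.3 FPKM in wild type, far below rpl102. Rpp202 likewise shared its locus with a gene of low level, SPBC23G7.14, at 34.8 FPKM in fas S.j. and 26.7 FPKM in wild type.

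The 5S particle has 4 genes, and in it uL18 (rpl501, rpl502) and uL5 (rpl1101, rpl1102) bind 5S ribosomal RNA. All 4 were lower in fas S.j. (beside 90% of the 60 members), with changes between -0.22 and -0.03. The highest of them in wild type was rpl1102, at 2274 FPKM in fas S.j. and 2491 FPKM in wild type. The lowest was rpl1101 (SPAC26A3.07c), at 1191 FPKM in fas S.j. and 1389 FPKM in wild type.

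Around the exit tunnel all 11 genes were lower in fas S.j. (beside 90% of the 60 members). Their median was -0.13, with a range from -0.24 to -0.0008. The lowest change was that of rpl1702 (SPCC364.03, uL22), at 1012 FPKM in fas S.j. and 1193 FPKM in wild type. Rpl401 (SPBC1711.06, uL4) followed at 743 FPKM in fas S.j. and 873 FPKM in wild type, a change of -0.23. It was also the lowest of the group in wild type. Both proteins line the narrow part of the tunnel. The most abundant was rpl35, at 3503 FPKM in fas S.j. and 3819 FPKM in wild type, for a protein at the tunnel's mouth. Rpl1901 was almost equal in the 2 strains, at 2084 FPKM in fas S.j. and 2085 FPKM in wild type.

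The 5 genes for proteins that reach towards the peptidyl transferase centre had a median of -0.07. Of these, 3 of 5 were lower in fas S.j., beside 90% of the 60 members. The group was the 2 genes of L3 and the 3 of uL2. Rpl801 (SPAC1F7.13c), the most abundant of them, was at 2512 FPKM in fas S.j. and 2494 FPKM in wild type, and rpl803 was at 1005 FPKM in fas S.j. and 988 FPKM in wild type. The third uL2 gene, rpl802, had 729 FPKM in fas S.j. and 777 FPKM in wild type. Summed over its 3 genes, uL2 was at 4246 FPKM in fas S.j. and 4259 FPKM in wild type. The lowest gene of the group was rpl302, at 409 FPKM in fas S.j. and 431 FPKM in wild type.

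The remaining 34 genes had a median of -0.09, with 30 of 34 lower in fas S.j. (beside 90% of the 60 members). The most abundant of all 60 was rpl29 (SPBC776.01), for a small protein of the subunit's surface, at 6967 FPKM in fas S.j. and 8347 FPKM in wild type. Its change, -0.26, was the third lowest of the members. Rpl2401 (eL24) came close with -0.23, at 1289 FPKM in fas S.j. and 1508 FPKM in wild type. On the other side rpl8 (eL8) was at 4179 FPKM in fas S.j. and 4090 FPKM in wild type, and rpl3602 (eL36) at 1204 FPKM in fas S.j. and 1184 FPKM in wild type, changes of 0.03 and 0.02.

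The 2 genes that were higher in fas S.j. by more than 0.3 were among the 3 lowest in wild type. Rpl3002 (SPAC1250.05), the minor gene for eL30, was at 338 FPKM in fas S.j. and 236 FPKM in wild type, the lowest wild-type level of the 60. Its change was 0.52. The estimated reads were about 1290 in fas S.j., against 1130 in wild type, for a counting error of 0.06 on the log2 scale, and the gene was alone in its locus. Rlp7, the assembly factor, was at 349 FPKM in fas S.j. and 274 FPKM in wild type, a change of 0.34. It shares its locus with rad9, which was at 13.3 FPKM in fas S.j. and 12.9 FPKM in wild type. Upstream of rlp7 on the same strand of chromosome I lies rpl13 (eL13), at 2773 FPKM in fas S.j. and 2885 FPKM in wild type.

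By the median difference of their changes, paralogues were no closer to each other than genes of different proteins were. The 60 genes belong to 37 proteins, of which 25 have 2 or more genes once the unlisted sisters are added. These gave 31 pairs, and in 27 of them (87.1%) the 2 changes differed by no more than 0.3, with a median difference of 0.10. Among the 1347 pairs that the same genes form across proteins, 88.9% differed by no more than 0.3, with a median of 0.09. Each gene enters many of these pairs. Because 56 of the 60 genes lay between -0.26 and 0.03, most pairs of any kind fall within 0.3. That share therefore cannot separate paralogues from other pairs. For rpl1801 and rpl1802 (eL18) the higher gene held 66.0% of the summed FPKM in fas S.j., against 66.0% in wild type, and for rpl3201 and rpl3202 (eL32) it held 51.1% in fas S.j., against 50.1% in wild type.

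The 4 pairs whose changes differed by more than 0.3 all involved rpl3002, rpl102 or rpp202. Rpl3002 made up 338 of 2352 FPKM of eL30 in fas S.j. and 236 of 2475 FPKM in wild type. Its major paralogue rpl3001 was at 2014 FPKM in fas S.j. and 2239 FPKM in wild type, so that the ratio of major to minor gene was 5.95 in fas S.j., against 9.49 in wild type. The summed mRNA of eL30 had a change of -0.07, the opposite sign from rpl3002. Rpl101, the major uL1 gene, was at 2650 FPKM in fas S.j. and 2687 FPKM in wild type, a change of -0.02, and outweighed rpl102 7.32 times in fas S.j. and 5.33 times in wild type. The sum of both had a change of -0.08.

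The P2 protein has 3 genes. Rpp201 was at 3543 FPKM in fas S.j. and 3730 FPKM in wild type, a change of -0.07, and rpp203 was at 1029 FPKM in fas S.j. and 1242 FPKM in wild type, a change of -0.27. With rpp202 the sum for P2 was 6018 FPKM in fas S.j. and 7189 FPKM in wild type, a change of -0.26. The 3 genes of its partner P1 summed to 4456 FPKM in fas S.j. and 4350 FPKM in wild type, a change of 0.03, in which rpp102 was higher in fas S.j. by 0.14.

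The pairs also differed in how alike their sequences are. In the 10 pairs whose coding sequences are at least 90% identical the changes differed by at most 0.15, with a median of 0.10, whereas the median was 0.17 and the highest 0.67 in the other 21. The eL30 pair has the lowest identity of all, 69.8% of the coding sequence and 81.2% of the protein. Across the 31 pairs, some of which share a gene, identity and difference had a Spearman's rho of -0.41. Reads that match both genes of a pair can be divided between them, and the part of this in the pattern was not tested.

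**Figure D4:**
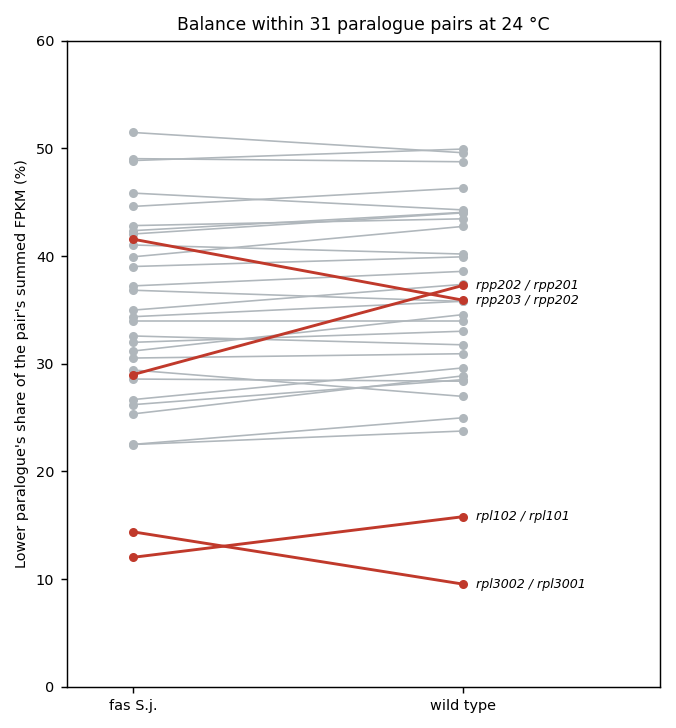
Share of a pair's summed FPKM at 24°C that came from the gene with the lower wild-type level, in fas S.j. (left) and wild type (right), for 31 pairs. The 4 red lines are the pairs whose changes differ by more than 0.3. The shares of rpl3002 and of rpp203 beside rpp202 are larger in fas S.j., and those of rpl102 and of rpp202 beside rpp201 are smaller.

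The other components of translation were measured in the same libraries. The counts of lower genes stand beside 50.7% lower among all genes. The 25 annotated 60S genes outside the list had a median change of -0.08, and 22 of 25 were lower in fas S.j., from -0.27 for rpp203 to 0.14 for rpp102. The 58 genes of the small (40S) subunit had a median of -0.11, equal to that of the 60S genes, and 51 of 58 were lower, from -0.23 (rps29) to 0.11 (rps2302). No gene of either list passed 0.3. Genes that build the subunit had lower medians. Of 40 measured factors of 60S assembly, 34 were lower, with a median of -0.16. Below -0.3 were 8 of them (20%, beside 10.8% of all genes), led by rlp24 with -0.48, and the 1 above 0.3 was rlp7. RNA polymerase I, which makes the large ribosomal RNAs, had a median of -0.19. Of its 9 measured subunit genes, 8 were lower, with rpa49 lowest at -0.34. The 7 genes of translation elongation factors had a median of -0.02 and the 76 of the mitochondrial ribosome -0.06. Among 11 regulators of ribosomal gene expression and growth, 8 were lower, from -0.37 for the kinase gene sck2 to 0.37 for maf1, the repressor of RNA polymerase III.

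At 30°C the table analysed held 285 genes, each lower in fas S.j. by at least 0.50 on the log2 scale (FPKM without a pseudocount), and 4 of the 60 were among them (6.67%, where 5.54% of the genes measured at 24°C were). The other 56 were not analysed at this temperature, where a smaller decrease would not be listed, so neither a median nor an increase could be measured. Both genes with the lowest change at 24°C were among the 4. Rpp202 was at 1174 FPKM in fas S.j. and 1898 FPKM in wild type at 30°C, a change of -0.69, beside -0.62 at 24°C. Rpl102 was at 379 FPKM in fas S.j. and 550 FPKM in wild type, a change of -0.54, beside -0.47.

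The other 2 had smaller changes at 24°C. The 30°C table holds no gene with a decrease under 0.50, so a member with a smaller decrease there could not appear. Why the decreases of these 2 were larger at 30°C was not tested. Rpl2502 (SPBC4F6.04), for the exit tunnel protein uL23, was at 611 FPKM in fas S.j. and 904 FPKM in wild type at 30°C, a change of -0.56. At 24°C it was at 753 FPKM in fas S.j. and 879 FPKM in wild type, a change of -0.22. It shares a locus with emp46 and with leu3, and leu3 was at 404 FPKM in fas S.j. and 315 FPKM in wild type at 24°C. Rpl3201 (SPBC16C6.11, eL32), alone in its locus, was at 1141 FPKM in fas S.j. and 1619 FPKM in wild type at 30°C, a change of -0.50. At 24°C it was at 1707 FPKM in fas S.j. and 1767 FPKM in wild type, a change of -0.05. The tables of the 2 temperatures were made separately, and no test compared the temperatures. Of the 60S genes outside the list, 3 of 25 were in the 30°C table, rpl4101, rpl4102 and rpl4302, with changes of -0.62, -0.67 and -0.53, and of the 40S genes 1 of 58.

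**Figure D5:**
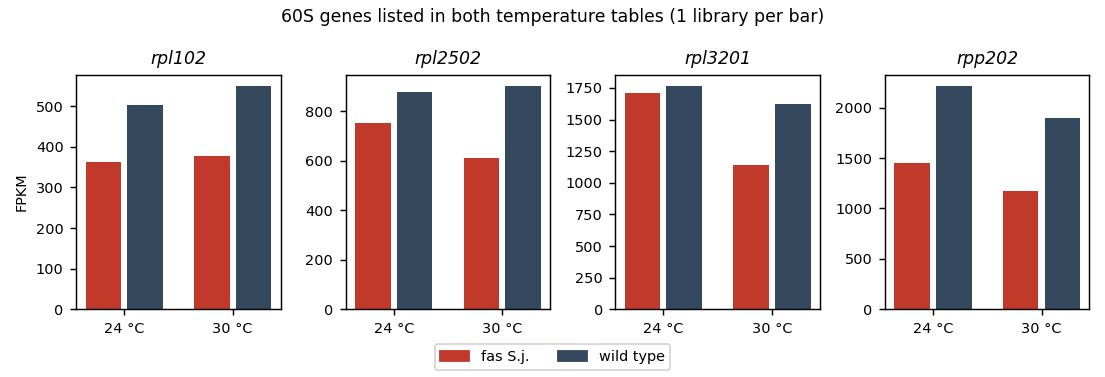
FPKM of the 4 members present in both tables, in fas S.j. (red) and wild type (dark) at 24°C and 30°C, 1 library per bar, with axes from 0. All 4 genes lie lower in fas S.j. at both temperatures; at 30°C this is fixed by the table, which holds only decreases of at least 0.50 on the log2 scale.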

How the data were processed

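Per the labels and the study's methods, poly(A) RNA libraries were mapped by the authors with TopHat and compared with Cuffdiff on a Galaxy server. Versions and the genome build are not given in the sources used here. The deposited FPKM values are those of Cuffdiff. The deposited fold changes, test statistics, p-values and q-values were not used. Changes were computed as log2 of FPKM + 1 in fas S.j. over wild type. Lists used genes whose mean FPKM reached 1. Names, lengths and promoters came from RefSeq ASM294v3 (5074 of 5143 identifiers matched). Its chromosomes matched those of the files for all 2318 genes compared, with median differences of 8 bases at the start and 12 at the end. Coding sequences were compared with blastn 2.17.0 and Biopython. Read numbers were inferred from the steps between low FPKM values, taking 200 bases off each transcript length, and intervals from them cover counting error only. Scripts (Python, pandas, numpy) were tested on simulated data. Named were the 5 highest and 5 lowest changes, members at 30°C, pairs that differed by over 0.3 and the extremes of each group. The members, lists and limits were chosen with earlier results of these data known.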

Additional observations from a re-analysis of the deposited data

How the results depend on the processing

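The median change of the 60S genes lay between -0.11 and -0.09 under every alternative tried: a pseudocount of 0.1, no low-value filter, a filter at a mean FPKM of 10, centring on the median change of the 4543 genes that pass this filter, members alone in their locus, members without a near-identical copy, FPKM summed over paralogues, and coding sequences of at least 400 bases. It did so too in 3 alternatives chosen after seeing the data, without rlp7, with the other annotated 60S genes and without the members in the 30°C table. The count beyond the limit was 4 at a limit of 0.3 and 2 at 0.5. The count of lower genes was 52 of 60 after centring and 37 of 42 among genes alone in their locus. The share of the summed FPKM was 15.3% in fas S.j., against 16.2% in wild type without the 20 highest genes that are not ribosomal, and, chosen after seeing the data, 15% in fas S.j., against 15.9% in wild type without such genes above 3000 FPKM. Summed over the eL30 pair, the change was -0.074, where rpl3002 alone had 0.52, since the major gene outweighs it (2014 FPKM in fas S.j., against 2239 FPKM in wild type). No paired analysis was possible because each strain had 1 library at each temperature. The 30°C table, which holds only decreases of at least 0.50, cannot serve as a second pair. With 1 library per strain and temperature, none could be left out. Differences of the size seen for most members cannot be told apart from variation between cultures. Depth at 30°C was not estimated.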
